A study of Arabidopsis thaliana with 18 samples.

Results

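The response of root procambium cells to the synthetic cytokinin BAP (benzylaminopurine) was measured in Arabidopsis thaliana by setting 3 arrays of BAP-treated procambium against 2 arrays of untreated procambium. The arrays were chosen by their titles alone and make up 5 of the 18 arrays of the series. All 5 came from wild type Columbia seedlings, 8 days old, that carried ARR15::GFP, an ER-localized fluorescent protein under the ARR15 promoter. Treated seedlings grew for 6 days on standard medium and then for 48 h on medium with 100 nM BAP. Whether untreated seedlings were also moved to fresh medium is not given in the labels. Roots were pooled and cut into 3 segments, the apical one was digested to protoplasts, and RNA of the GFP-positive protoplasts was amplified in 2 rounds, labelled and hybridised to ATH1 arrays. The other arrays used here are 11 of the same line and age from the middle segment (transition cambium) and the basal segment (cambium), with and without BAP, and 2 of untreated 6-day-old wild type Columbia seedlings carrying ARR5::GFP. The labels give those ARR5::GFP cells as procambium plus lateral root cap, sorted from the bottom part of the root without dissection. Arrays of a group are labelled as biological replicates, with nothing said of when each was grown.

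Cytokinins are plant hormones perceived by membrane histidine kinases, which pass phosphate through carrier proteins to response regulators in the nucleus. Type-B regulators then switch on target genes, among them the type-A regulators, which damp the signal. In the root, cytokinin acts in the procambium, the strand of undifferentiated vascular cells that gives rise to xylem, phloem and the lateral meristem called cambium, where it promotes cell division, and at the tip it promotes differentiation.

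Levels are log2 GCRMA values, which cannot fall below 2.17 on these arrays, and a level under log2 5 is treated as near background. The share of probe sets at log2 5 or more was between 48.2% and 49.2% on the 5 arrays. Across all probe sets the correlation between arrays was 0.971 for the untreated pair, between 0.967 and 0.989 among the BAP arrays, and between 0.926 and 0.951 across the treatments. A difference is called where the adjusted p of limma's test across 13202 probe sets was under 0.05. Where the dimmer group was under log2 5 on every array, the fold is given as at least the ratio of the brighter mean to log2 5. The number of arrays, 2 against 3, limits the precision of every value.

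BAP raised 1005 probe sets (7.61% of those tested) and lowered 850 (6.44%) in procambium. The changes were large: 936 of the higher and 788 of the lower ones moved by at least 1 on the log2 scale. At the extreme, 143 rose by at least 4 and 44 fell by at least 4. The arrays of both groups did not overlap for 1846 called probe sets (14.0% of those tested), while 37.9% of all probe sets tested showed no overlap. Called genes with a symbol, no array overlap and a change of at least 1 numbered 85 higher and 73 lower, out of 1041 tested genes with a symbol. Over the 7036 annotated genes, with 1 probe set each, 7.39% rose and 6.89% fell. The counts over probe sets were smaller when only the procambium arrays were fitted, with 516 higher and 347 lower. Without untreated replicate 1 they were 757 higher and 352 lower.

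**Figure D1:**
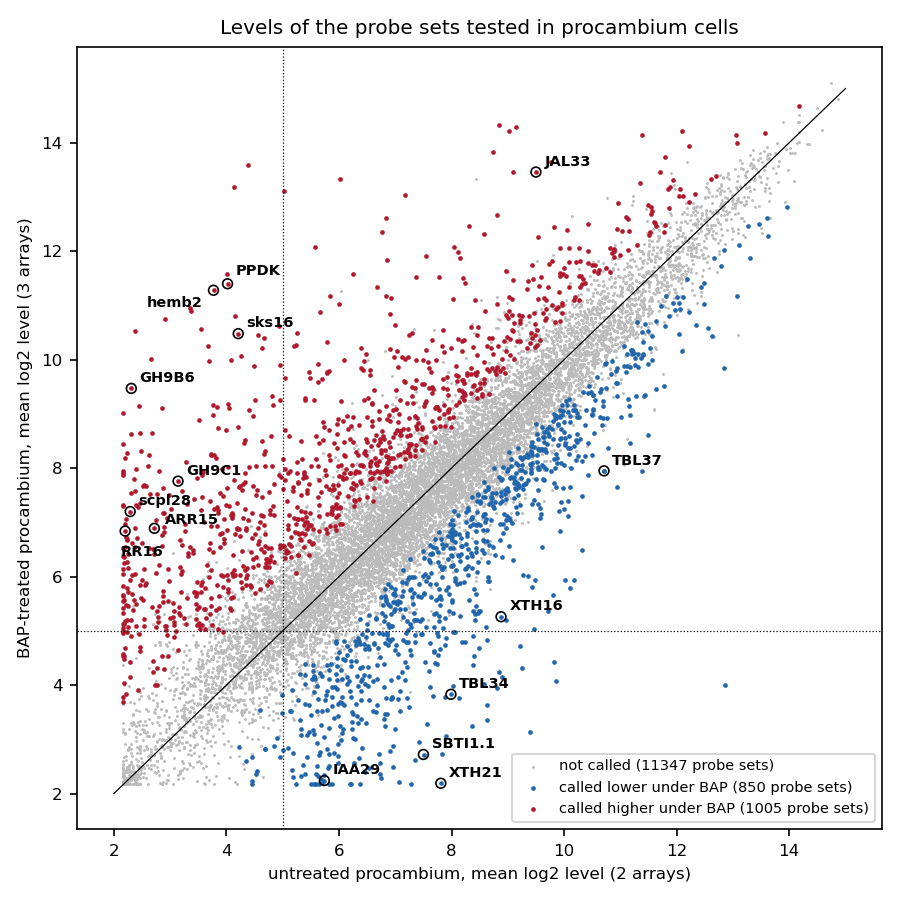
Mean log2 level of each tested probe set in untreated procambium (x axis, 2 arrays) and BAP-treated procambium (y axis, 3 arrays), with called probe sets in red (1005 higher) and blue (850 lower), dotted lines at log2 5 and the diagonal of no change. Circled genes are examples named in the text, and many red points lie left of the dotted line, where untreated levels were under log2 5.

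Levels of genes listed as markers of cell types were read beside the labelled identity of the cells. Of 8 genes listed for procambium and cambium, 4 had a named probe set here: CLE41, CLE44, MOL1 and LHW. Their summed level lay between log2 8.70 and 8.93 in untreated cells and between 9.11 and 9.27 under BAP, with CLE44 under log2 5 on all 5 arrays. With only 4 of the 8 listed genes read, and CLE44 near background, this sum cannot settle the identity of the cells. CLE41 and CLE44 encode a peptide signal, and which cells transcribe them was not tested. The xylem marker GUT2, a xylan synthesis gene also called IRX10, was at log2 5.99 to 6.63 untreated and 4.45 to 4.79 under BAP. The phloem marker OPS stayed under log2 5 on all 5 arrays. The endodermis and cortex markers JKD and PEP summed to 5.74 to 6.06 untreated and 4.66 to 5.19 under BAP. The root hair markers EXPA7 and EXPA18 summed to log2 3.77 to 3.78 untreated and to 5.06 to 7.61 under BAP. EXPA7 and EXPA18 thus summed to more under BAP, while GUT2 and the pair JKD and PEP read less. The tested ones, EXPA7, GUT2 and PEP, were not called, and JKD was under log2 5 on every array. In the epidermis and root hair gene group, CSLD2 and SCN1 had log2 changes of -0.418 and -0.555, also not called. The part of these cell types in the results was not tested. None of the 7 root cap markers was matched to a probe set by symbol or synonym, so the list gave no reading of that cell type. A marker that the annotation gives only by locus code would be missed by this matching. Genes named below by locus code, such as AT1G65570, may therefore be among the 7. In sorted pools, fewer cells of a type and less RNA per cell cannot be told apart.

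Both type-A response regulators with a named probe set were clearly higher after 48 h on BAP. ARR15 (AT1G74890) had log2 levels of 2.68 and 2.76 in untreated cells and 7.66, 6.24 and 6.76 under BAP. All BAP arrays were above, and all untreated arrays below, the background limit. This is at least 3.70-fold higher, with a log2 change of 4.17 ± 0.43 (SE, adjusted p = 1.53e-05). RR16 (AT2G40670), the regulator ARR16, was at 2.20 on both untreated arrays and at 6.60, 6.48 and 7.44 under BAP. Its log2 change was 4.64 ± 0.37 (adjusted p = 2.15e-06), at least 3.58-fold. ARR15 is also the gene whose promoter drives the reporter used to sort the cells; whether the GFP gate took the same cells with and without BAP was not tested. On untreated ARR5::GFP arrays, ARR15 read 2.51 and 3.26 and RR16 read 2.46 and 2.39, all under the background limit.

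Of 2 tested genes of cytokinin inactivation, 1 rose. UGT76C2 (AT5G05860), which attaches glucose to cytokinin nitrogens and inactivates the hormone, had levels of 5.29 and 5.37 untreated and 6.58, 7.50 and 7.52 under BAP. The groups did not overlap and the level was 3.67-fold higher (log2 change 1.88 ± 0.33, adjusted p = 0.00132). Its relative UGT76C1, with the same activity, had a log2 change of 0.15 (adjusted p = 0.857). None of the 3 cytokinin receptor, phosphotransfer and other response factor genes on the list was bright enough to be tested.

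Among 5 regulators of procambium and cambium, 1 rose and 1 fell, beside 7.39% and 6.89% over all genes. CLE41 (AT3G24770), one of the genes for the TDIF peptide that maintains vascular stem cells and restrains xylem formation, had levels of 4.72 and 5.60 untreated and 7.39, 6.24 and 6.55 under BAP. Every BAP array exceeded both untreated arrays (2.97-fold, adjusted p = 0.00841), but without untreated replicate 1 the adjusted p was 0.124. PHV (AT1G30490), a class III HD-ZIP transcription factor of vascular patterning, fell from 8.00 and 7.61 to 6.77, 6.37 and 5.44, a 3.05-fold difference (adjusted p = 0.0122). That call was also lost without untreated replicate 1 (adjusted p = 0.106). CLE44, which encodes the same peptide as CLE41, the receptor-like kinase MOL1 and the bHLH factor LHW had log2 changes of -0.02, 0.40 and 0.12, none of them called.

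Xylem and secondary wall genes were not called, but all 4 tested had lower means under BAP. The log2 changes were -1.72 for GUT2, -0.69 for GUT1, -1.94 for IRX15 and -2.07 for IRX15-L, all genes of xylan synthesis, with adjusted p between 0.104 and 0.213. Their median was -1.83, against a median of -0.02 over the 7036 genes tested. Of 2 phloem genes and 3 epidermis genes none was called; the largest value was 2.36 for EXPA7 (adjusted p = 0.143).

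Of 9 auxin genes, none rose and 1 fell, beside 7.39% and 6.89% over all genes. It was IAA29 (AT4G32280), an Aux/IAA repressor of auxin response. Its levels were 5.75 and 5.73 untreated and 2.31, 2.21 and 2.20 under BAP, a log2 change of -3.50 ± 0.58 (adjusted p = 0.00084). Both untreated arrays were only just above the background limit, so the fold is at least 1.66. None of 6 genes of the ethylene, brassinosteroid, gibberellin and abscisic acid list was called, with 1 at an unadjusted p under 0.05.

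The largest increases among named genes were in enzymes that untreated procambium barely showed. hemb2 (AT1G44318), a gene for the porphyrin pathway enzyme aminolevulinate dehydratase, read 2.76 and 4.78 untreated and 11.30, 11.04 and 11.51 under BAP. It was at least 77.9-fold higher (log2 change 7.51 ± 0.96, adjusted p = 0.000103). PPDK (AT4G15530), pyruvate orthophosphate dikinase, read 2.95 and 5.09 untreated and 10.69, 11.62 and 11.88 under BAP. With 1 untreated array above the limit, its fitted fold was 166 (log2 change 7.38 ± 0.84, adjusted p = 3.79e-05). In both genes the BAP arrays lay within a narrow band far above every untreated array, while untreated replicate 2 read higher than replicate 1.

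The 15 largest increases also held 2 endoglucanase, 2 SKU5-similar and 1 serine carboxypeptidase-like gene. GH9B6 (AT1G23210), a family 9 endoglucanase, read 2.20 and 2.41 untreated and 8.51, 9.66 and 10.23 under BAP, at least 22.1-fold higher (log2 change 7.16 ± 0.65, adjusted p = 5.15e-06). GH9C1 (AT1G48930), another family 9 enzyme, read 3.27 and 3.01 untreated and 8.50, 6.90 and 7.88 under BAP, at least 6.78-fold higher. Both endoglucanase genes went from background on every untreated array to clear signal on every BAP array. sks16 (AT2G23630), of the SKU5-similar family of multicopper oxidase-like wall proteins, read 3.60 and 4.83 untreated and 10.29, 10.60 and 10.55 under BAP, at least 44.5-fold higher. sks15 (AT4G37160) of the same family started above background, at 5.79 and 7.87, and reached 11.33, 11.21 and 11.00 (20.3-fold). The sks15 call was lost without untreated replicate 1 (adjusted p = 0.0819). scpl28 (AT2G35770), a serine carboxypeptidase-like gene, read 2.17 and 2.40 untreated and 4.59, 8.11 and 8.91 under BAP, so BAP replicate 1 stayed under the limit.

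The remaining large increases covered transport, sulfur chemistry, lectins and a flowering regulator. STR18 (AT5G66170), a sulfurtransferase, rose 18.1-fold from 4.95 and 6.01 to 9.94, 9.21 and 9.82. CXE18 (AT5G23530), a carboxylesterase, rose from 3.69 and 4.97 to 7.61, 9.10 and 8.83, at least 11.4-fold. CHX20 (AT3G53720), a cation and proton exchanger of inner membranes, rose from 2.40 and 3.37 to 5.66, 7.20 and 7.90, at least 3.79-fold. All 3 had BAP arrays clear of the untreated ones. The jacalin-type lectin genes JAL22 (AT2G39310) and JAL33 (AT3G16450) both changed by 3.96 on the log2 scale. JAL33 was already bright, at 10.17 and 8.83 untreated, and reached 13.35, 13.34 and 13.69 (15.5-fold, adjusted p = 1.83e-06). ATC (AT2G27550), a relative of the flowering repressor TERMINAL FLOWER, rose 15.6-fold from 6.27 and 5.38 to 9.90, 10.00 and 9.46, a call lost without untreated replicate 2 (adjusted p = 0.0903).

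**Figure D2:**
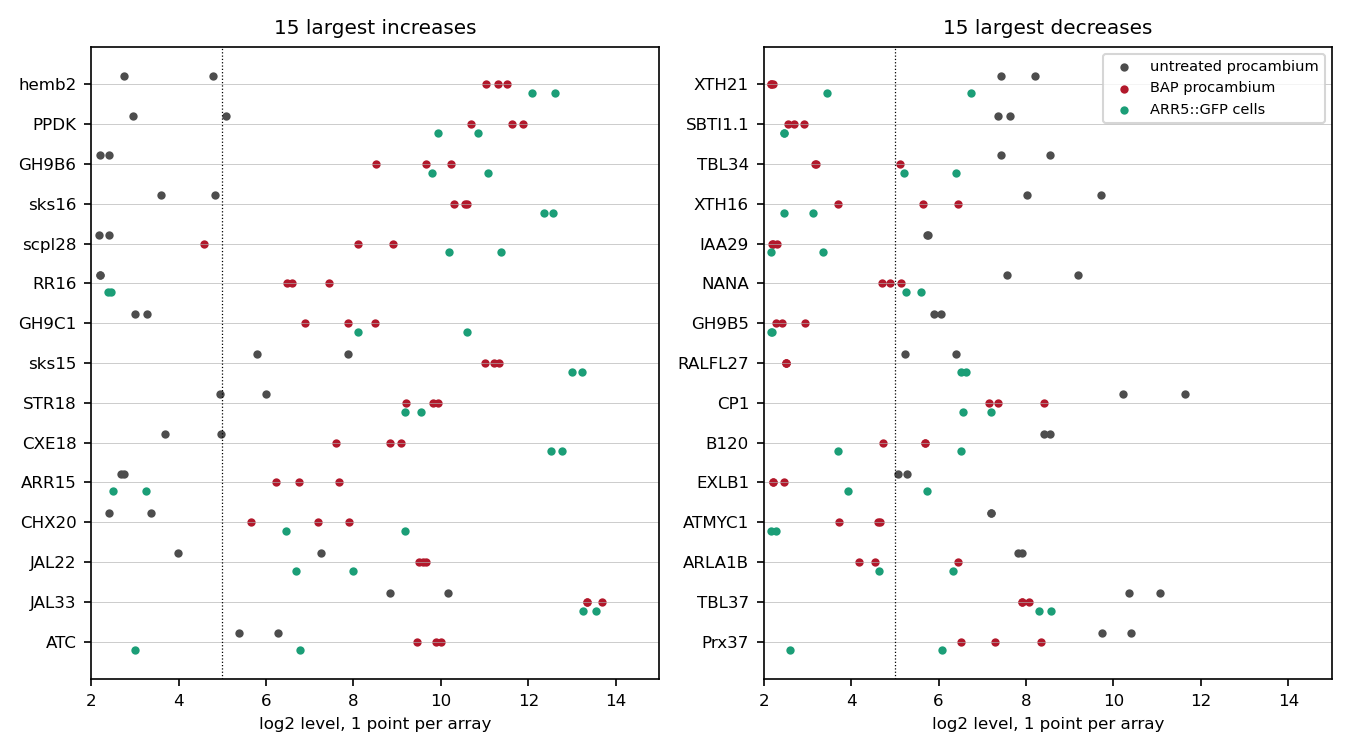
Log2 level on each array (x axis) of the 15 named genes with the largest increases and the 15 with the largest decreases, for untreated procambium (2 arrays, grey), BAP procambium (3, red) and untreated ARR5::GFP cells (2, green), with a dotted line at log2 5. Red and grey points of a gene do not overlap by the rule that chose the genes; in hemb2, sks16, sks15, scpl28 and CXE18 the green points lie right of all red ones, while ARR15 and RR16 have green points next to the grey.

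Genes known only by locus code, for which the annotation gave no symbol, included larger increases. The ranking covers annotated genes, since 847 of the 1855 called probe sets had no single gene in the annotation used. AT1G50060 went from 3.27 and 5.52 to 13.58, 13.62 and 13.58, a fitted 590-fold difference (log2 change 9.20 ± 0.95, adjusted p = 1.6e-05). AT3G61930 went from 3.53 and 6.53 to 13.06, 13.25 and 13.02, and AT1G65570 from 2.94 and 3.75 to 10.34, 11.50 and 11.00. The BAP arrays of AT1G50060 lay close together, while its untreated arrays lay far apart. AT4G27400 and AT1G23160 were at least 95.9-fold and at least 59.8-fold higher.

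XTH21, SBTI1.1, TBL34, XTH16 and IAA29 had the 5 largest decreases among genes with a symbol. XTH21 (AT2G18800), a xyloglucan endotransglucosylase/hydrolase, read 8.21 and 7.42 untreated and 2.17, 2.17 and 2.22 under BAP. It was lost to background on every BAP array, at least 7.02-fold lower (log2 change -5.62 ± 0.58, adjusted p = 1.6e-05). SBTI1.1 (AT1G01900), a subtilisin-like protease, read 7.37 and 7.64 untreated and 2.69, 2.55 and 2.92 under BAP, at least 5.67-fold lower. NANA (AT3G12700), an aspartic protease of the chloroplast, fell 11.0-fold from 9.19 and 7.57 to 4.88, 5.15 and 4.71 (adjusted p = 0.000301). The cysteine protease gene CP1 (AT4G36880) fell 9.76-fold from 11.64 and 10.23 to 7.36, 8.42 and 7.15, a call lost without untreated replicate 1 (adjusted p = 0.129). Among the 15 largest decreases were also RALFL27, a gene for a RALF-type signalling peptide, at least 1.77-fold lower, and B120, 8.70-fold lower. ATMYC1, a bHLH factor of epidermal cell fate, was at least 4.60-fold lower, but its call was lost without untreated replicate 1 (adjusted p = 0.106), untreated replicate 2 (0.0887) or BAP replicate 3 (0.079). EXLB1, an expansin-like gene, was just above background untreated (at least 1.13-fold) and its call was lost without untreated replicate 2 (adjusted p = 0.0578). ARLA1B, a small GTPase gene, fell 6.98-fold. By locus code the 5 largest decreases were AT5G22580, AT1G73780, AT1G49030, AT3G22540 and AT1G54740, with log2 changes between -5.13 and -4.85. AT1G49030 went from 6.84 and 7.71 to 2.17 on every BAP array.

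Cell wall families split rather than moving one way. Of 7 GH9 genes tested, 3 rose and 2 fell, beside 7.39% and 6.89% over all genes, with a median log2 change of 0.31. GH9B8 joined GH9B6 and GH9C1 (log2 change 3.11 ± 0.38, at least 4.17-fold). GH9B5 fell from 6.06 and 5.90 to 2.43, 2.95 and 2.29, and GH9B13 fell 2.72-fold from 10.65 and 10.72 to 8.99, 9.49 and 9.23. Of 8 XTH genes 1 rose and 3 fell (median -0.83). XTH20 rose 4.63-fold (adjusted p = 0.0166, but 0.196 without untreated replicate 2 and 0.0538 without BAP replicate 1), whereas XTH21, XTH16 and XTH32 fell. XTH16 (AT3G23730) went from 8.03 and 9.72 to 6.44, 5.65 and 3.69 (12.3-fold), and its call was lost without untreated replicate 2 (adjusted p = 0.0965). XTH32 was under log2 5 on all 5 arrays and its call was lost when any of them was left out.

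Genes of the TBL family, whose members add acetyl groups to wall polysaccharides, fell in 4 of 16 cases and rose in 1 (median -0.45). Over all genes 6.89% fell and 7.39% rose. TBL34 (AT2G38320), which acts on xylan, fell 17.8-fold from 7.44 and 8.54 to 5.13, 3.20 and 3.17 (adjusted p = 0.000136). TBL37 (AT2G34070) fell 6.76-fold from 11.07 and 10.36 to 8.06, 7.90 and 7.91 (adjusted p = 3.22e-05). All BAP arrays of both genes were at least 2 log2 units under the lower untreated array. TBL38 fell 3.24-fold and TBL30 4.70-fold, the latter lost without untreated replicate 2 (adjusted p = 0.0829). TBL45 rose 3.01-fold at adjusted p = 0.0436, a call lost under both other scalings and without any procambium array but BAP replicate 2. Of 8 expansins, 1 rose: EXPB3, 4.07-fold, with adjusted p = 0.031, which became 0.307 without untreated replicate 2, 0.052 without BAP replicate 1 and 0.1 without BAP replicate 3. The mannan synthase-type gene CSLA03 was the 1 of 10 cellulose, xylan and arabinogalactan genes that fell (2.76-fold, adjusted p = 0.0398), a call lost without untreated replicate 1 (0.289), BAP replicate 2 (0.076) or BAP replicate 3 (0.133). Neither of 2 pectin genes was called.

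Of 30 UDP-glycosyltransferases, 4 rose and 2 fell, beside 7.39% and 6.89% over all genes, with a median of -0.10. Besides UGT76C2 the risers were UGT76D1 (at least 3.89-fold), UGT87A2 (4.13-fold) and UGT71B5 (at least 1.30-fold). UGT78D2, a flavonoid glucosyltransferase, fell 2.72-fold and UGT74D1 2.41-fold. The UGT76C2 call was kept without any 1 procambium array. Without untreated replicate 1 the calls of UGT76D1, UGT71B5, UGT78D2 and UGT74D1 were lost (adjusted p between 0.0557 and 0.146), and without untreated replicate 2 those of UGT76D1 (0.0684) and UGT87A2 (0.0777). Of 11 beta-glucosidases, BGLU44 rose from 3.17 and 2.57 to 5.29, 5.89 and 5.40, BGLU25 rose 2.31-fold, and BGLU15 fell 1.87-fold (adjusted p = 0.00894, and 0.0514 without untreated replicate 2). The BGLU25 arrays were tightly grouped, at 9.95 and 9.63 untreated and 10.99, 11.00 and 11.02 under BAP. Of 15 serine carboxypeptidase-like genes, scpl28 rose and SCPL45 fell 4.39-fold (adjusted p = 0.000398).

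The defence and stress genes that were called all rose, beside 7.39% higher and 6.89% lower over all genes. These lists, like the others, were chosen with earlier results of these data known, so their counts are descriptions only. Of 10 defensin, lectin and pathogen response genes, 6 were not called, none fell and 4 rose (median 0.87): JAL22, JAL33, PDF2.1 and SAG101. SAG101 (AT5G14930), a partner of the immune regulator EDS1, rose 8.83-fold from 6.14 and 5.29 to 8.16, 9.17 and 9.23 (adjusted p = 0.00196). The defensin gene PDF2.1 rose from 2.40 and 2.33 to 6.91, 4.16 and 5.65, with BAP replicate 2 still under the limit. Of 18 wounding, calcium and stress signalling genes, 15 were not called, 3 rose and none fell (median 0.79). WRKY53 (AT4G23810), a transcription factor of senescence and defence, rose 4.83-fold from 7.45 and 8.00 to 9.77, 10.18 and 10.04 (adjusted p = 0.000301), a call kept whichever procambium array was left out. WRKY22, a factor of immune signalling, rose 5.44-fold and BIK1, a kinase below immune receptors, 3.76-fold. Leaving out untreated replicate 2 took WRKY22 to an adjusted p of 0.0514 and BIK1 to 0.166. Without untreated replicate 1 WRKY22 was at 0.0571, and without BAP replicate 2 BIK1 was at 0.0589.

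Of 15 cell cycle, replication and mitosis genes none rose and 1 fell, beside 7.39% and 6.89% over all genes, with a median of 0.32 and 5 at an unadjusted p under 0.05. The one called was SIM (AT5G04470), an inhibitor of cyclin-dependent kinases, which fell 3.25-fold from 9.16 and 9.84 to 7.62, 8.05 and 7.73 (adjusted p = 0.0107, and 0.104 without untreated replicate 2). TOPII, topoisomerase II, had a log2 change of 1.25 (adjusted p = 0.121), and the Aurora kinase genes AUR1, AUR2 and AUR3 had changes of -0.40, 0.61 and 0.28. Of 11 tubulin and microtubule genes, SP1L4, of the SPIRAL1-like microtubule-associated family, fell 3.66-fold from 8.89 and 9.42 to 7.88, 6.85 and 7.11.

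Of 9 nutrient genes, 4 fell and STR18 rose, beside 6.89% and 7.39% over all genes, with a median of -0.79. The ATP sulfurylase gene APS4 (AT5G43780), of sulfate assimilation, fell 3.86-fold from 10.14 and 9.86 to 8.22, 7.58 and 8.36 (adjusted p = 0.000173). The vacuolar sugar transporter gene SWEET16 (AT3G16690) fell 2.76-fold. APS3 and the zinc transporter gene ZIP6 also fell, with calls lost without untreated replicate 1 (adjusted p = 0.385 and 0.467) and without BAP replicate 3 (0.135 and 0.163); ZIP6 was also at 0.0539 without BAP replicate 2. In the glucosinolate and methionine group of 3, the glutathione transferase gene GSTF4 rose at least 1.52-fold, with adjusted p = 0.0833 without untreated replicate 1 and 0.0599 without untreated replicate 2. Of 3 peroxidase and oxidase genes, Prx37 fell 6.39-fold, and its call was lost without untreated replicate 2 (adjusted p = 0.109) and without BAP replicate 2 (0.0606).

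Of 16 nuclear genes for photosynthesis and chlorophyll, hemb2 rose and none fell, beside 7.39% and 6.89% over all genes. HEMB1, which encodes the other aminolevulinate dehydratase, had a log2 change of -0.35 (adjusted p = 0.605). Of 45 plastid-encoded photosynthesis genes 2 rose, psbI and psbM of photosystem II, and the median over all was 0.45. The psbI call was lost without untreated replicate 1 (adjusted p = 0.0957), and that of psbM without untreated replicate 1 (0.267) or any 1 BAP array. None of the 15 ribosomal protein genes, all but 1 of them plastid-encoded, was called (median 0.87, with 2 at an unadjusted p under 0.05). None of 4 ATP-citrate lyase genes was called.

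Of 19 developmental transcription factors, 3 rose and 1 fell, beside 7.39% and 6.89% over all genes. SPT (AT4G36930), a bHLH factor that restrains organ growth, rose from 3.94 and 4.28 to 6.73, 5.97 and 6.46, at least 2.62-fold (adjusted p = 0.00121). AGL21, a MADS-box factor of lateral root growth, rose 3.53-fold, and NAC014 at least 1.79-fold. The MADS-box gene AGL42 fell 5.12-fold, although BAP replicate 1 at 6.23 overlapped the untreated 6.11 and 6.95. The calls of AGL21, NAC014 and AGL42 were lost without untreated replicate 1 (adjusted p = 0.134, 0.14 and 0.0837). NAC014 also lost its call without untreated replicate 2, BAP replicate 1 or BAP replicate 3 (0.0683, 0.0502 and 0.0721), and AGL42 without untreated replicate 2, BAP replicate 2 or BAP replicate 3 (0.203, 0.125 and 0.14).

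Some of these calls also depended on the fit. On the procambium arrays alone, 30 calls named here were lost, with adjusted p between 0.0552 and 0.249. They were scpl28, XTH16, XTH20, ARLA1B, CLE41, PHV, CSLA03, EXPB3, TBL45, BGLU15, UGT71B5, UGT74D1, UGT78D2, UGT87A2, PDF2.1, WRKY22, BIK1, APS3, ZIP6, SWEET16, AGL42, NAC014, psbI and psbM, and from the comparison of zones that follows ALN, GT72B1, MT1C, NAI2, POL and THE1. With no filter on dim probe sets 20 were lost (adjusted p between 0.0501 and 0.0972): ATC, ATMYC1, Prx37, XTH20, XTH32, EXPB3, CSLA03, TBL45, BIK1, GSTF4, APS3, ZIP6, AGL42, psbM, ALN, GT72B1, MT1C, NAMT1, POL and ROXY1. With values under log2 5 raised to it 14 were lost, those of scpl28, BGLU44, PDF2.1, EXLB1, EXPB3, GSTF4, TBL45, UGT71B5, XTH32, ZIP6, NAC014, NAMT1, POL and ROXY1. With all 18 arrays 11 were lost, those of Prx37, XTH20, CSLA03, TBL45, BGLU15, UGT74D1, APS3, ZIP6, NAC014, GT72B1 and POL.

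**Figure D3:**
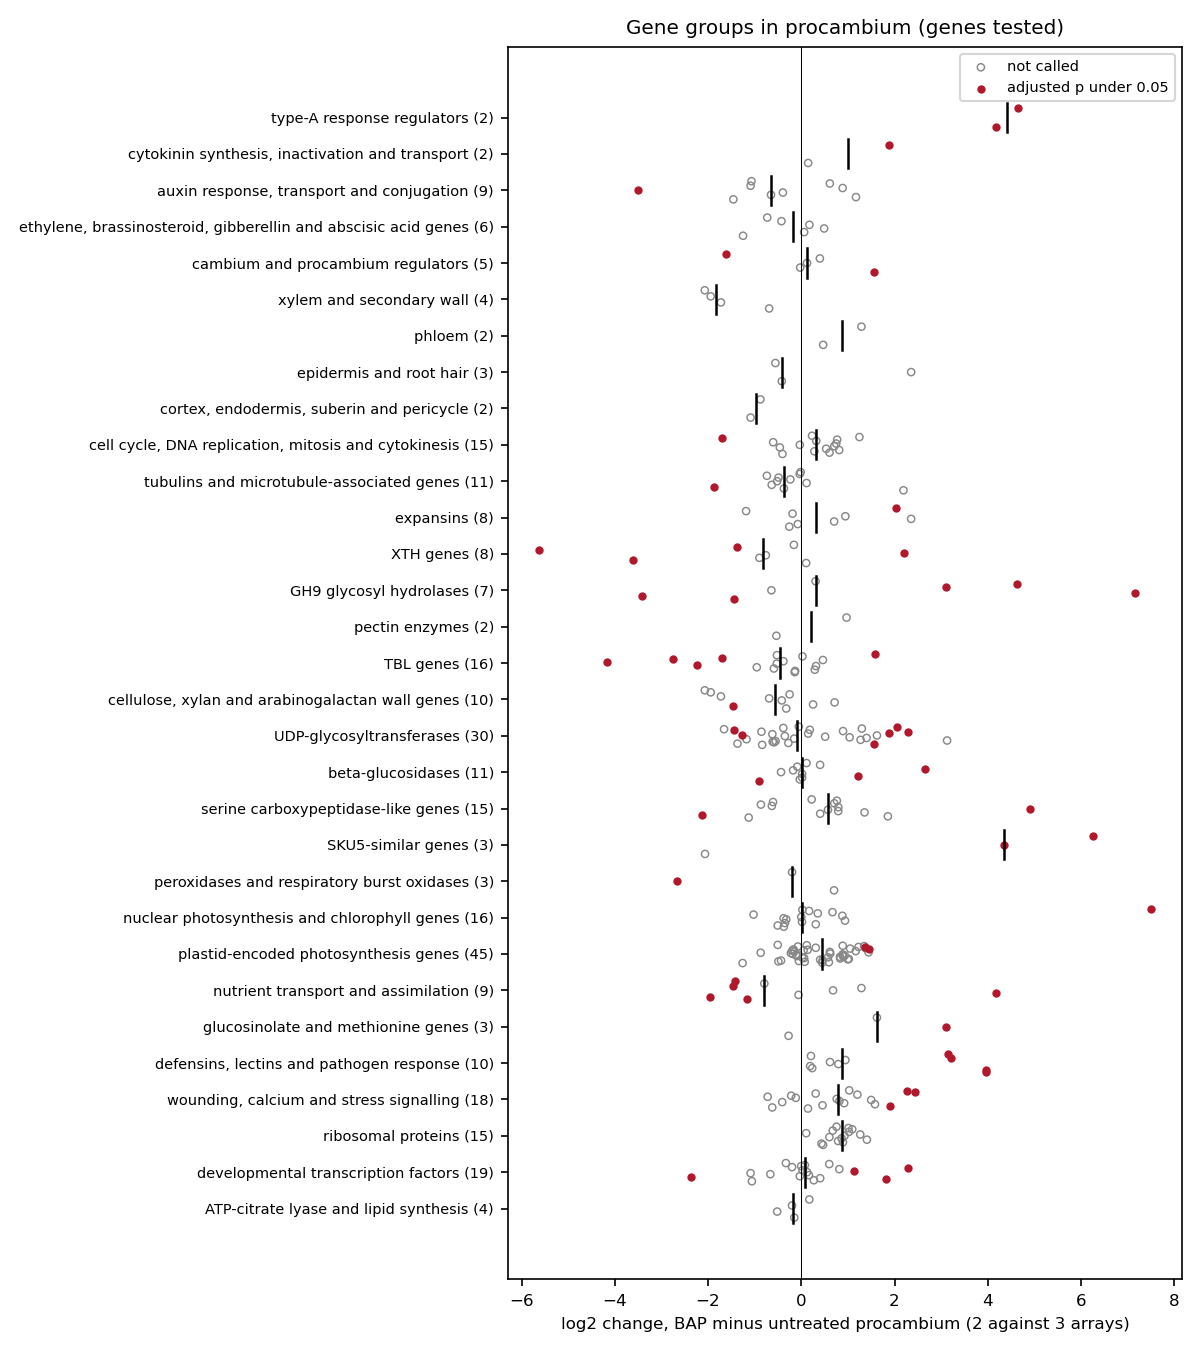
Log2 change under BAP in procambium (x axis) of every tested gene of each gene group (number tested in parentheses), filled where the adjusted p was under 0.05, with a black bar at the group's median. Both type-A response regulators lie beyond 4, GH9 and XTH genes spread to both sides, and all called genes of the defence and stress groups lie right of 0. The groups were chosen with earlier results of these data known.

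BAP effects in the other zones are differences between other arrays; the zones share the estimate of spread and the filter on dim probe sets. In cambium 1018 probe sets rose and 944 fell (7.71% and 7.15%), and in transition cambium 621 rose and 620 fell (4.7% in each direction). Of the probe sets raised in procambium, 175 were also raised in cambium, 17.4% of the procambium list and 17.2% of the cambium list. With transition cambium 211 were shared, 21.0% and 34.0% of the 2 lists. Among the lowered, 179 were shared with cambium (21.1% and 19.0%) and 157 with transition cambium (18.5% and 25.3%). Opposite calls were fewer: 39 probe sets rose in procambium and fell in cambium, 13 the reverse, and for transition cambium the counts were 10 and 11.

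A core of 99 probe sets rose in all 3 zones and 85 fell in all 3. Named genes raised in every zone were ARR15, RR16, CXE18, NAMT1, ATLP-1, NAI2, BGLU25 and POL. ATLP-1, a thaumatin-like protein gene, rose in procambium from 5.37 and 5.32 to 8.48, 7.92 and 8.11 (7.10-fold), and by 2.05 in cambium and 1.91 in transition cambium on the log2 scale. NAI2, which shapes ER bodies, rose by 2.04, 2.08 and 1.94 in procambium, cambium and transition cambium. Named genes lowered in every zone were APS4, SWEET16 and ALN, the last encoding allantoinase of purine breakdown. In procambium, the calls of ALN and POL were lost without any 1 of the 5 arrays and that of NAMT1, which was under log2 5 on all of them, without any but BAP replicate 3. ARR15 rose by 3.92 in cambium and 2.91 in transition cambium, and its procambium response exceeded their mean by 0.75 ± 0.51, which was not called (adjusted p = 0.404). RR16 rose by 2.72 in cambium and 3.35 in transition cambium, and its response in procambium was larger than their mean by 1.60 ± 0.45 (adjusted p = 0.0341), a call that 9 of the 16 arrays ended when left out, with adjusted p up to 0.108.

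The difference between the procambium response and the mean response of the other zones was tested for every probe set. It was positive for 725 (5.49%) and negative for 565 (4.28%). With each array centred on its median, these became 606 and 720, and the median over all tested probe sets moved from -0.014 to -0.146, so the balance of the counts depends on the scaling. The lower count was 282 without untreated procambium replicate 1, 366 without untreated procambium replicate 2 and 327 without BAP procambium replicate 3, which also took the higher count to 466. Against cambium alone the difference was positive for 5.13% and negative for 3.84% of probe sets, and against transition cambium alone for 3.09% and 2.18%. In procambium, 230 probe sets rose and exceeded the response of each other zone in separate tests, and 115 fell and were below each; those 2 tests share the procambium arrays.

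Among genes with a symbol, the 6 largest positive differences were those of GH9B6, hemb2, GH9C1, ROXY1, PPDK and CHX20. GH9B6 rose by 7.16 in procambium and 2.35 in transition cambium and had an estimate of -0.28 in cambium, a difference of 6.12 ± 0.78 (adjusted p = 0.000344). GH9C1 changed by 4.62 in procambium against 0.00 and -0.14 in the transition zone and cambium (difference 4.69 ± 0.57, adjusted p = 0.000223). hemb2 and PPDK also rose in transition cambium, by 4.40 and 5.44, but had estimates of 0.14 and 0.57 in cambium. Without untreated procambium replicate 1 the difference was not called for hemb2 (adjusted p = 0.0782), PPDK (0.103) or CHX20 (0.0534). CHX20, with estimates of 0.53 and -0.76 in those zones, had a difference of 4.16 ± 0.87. ROXY1, a glutaredoxin gene of flower development, was called higher in procambium and lower in both other zones (difference 4.65 ± 0.70), but it was under log2 5 on all 5 procambium arrays and its procambium call was lost without any of them but BAP replicate 1.

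The 6 largest negative differences held genes that BAP raised elsewhere. NANA fell by 3.47 in procambium and rose by 2.60 in cambium and 2.95 in transition cambium, a difference of -6.24 ± 0.61 (adjusted p = 4.29e-05). BGLU47, a beta-glucosidase gene, rose by 4.68 and 4.61 in cambium and transition cambium and stayed at background on all 5 procambium arrays, between 2.17 and 2.54. UGT84A4, a glycosyltransferase gene, rose by 3.76 and 3.60 in those zones and had a procambium estimate of -1.66 (adjusted p = 0.0804), a difference of -5.33 ± 0.72. UGT72E3, which glycosylates lignin precursors, had a difference of -3.85 ± 0.80 (adjusted p = 0.0072, and 0.0618 without untreated procambium replicate 1). SBTI1.1 and XTH21 differed in another way, since they fell in procambium while their estimates in the other zones, between -1.58 and -0.43, were not called.

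Called in opposite directions in procambium and at least 1 other zone were 9 named genes. Besides NANA and ROXY1 these were THE1, GT72B1, APS3, BGLU15, MT1C, GH9B13 and NAC014. The procambium call of MT1C, a metallothionein gene, was lost without any 1 array but BAP replicate 1. THE1 (AT5G54380), a receptor kinase that monitors the cell wall, fell 2.38-fold in procambium from 10.71 and 10.77 to 9.42, 9.77 and 9.27 and rose by 0.88 in cambium (adjusted p = 0.0168). The difference of its responses was -2.08 from the mean of the other zones (adjusted p = 0.000705). GH9B13 fell by 1.45 in procambium and rose by 2.17 in transition cambium. GT72B1, a glucosyltransferase gene, fell by 1.55 in procambium and rose by 1.36 and 1.41 in cambium and transition cambium, but its procambium call was lost without untreated replicate 1 (adjusted p = 0.314), BAP replicate 1 (0.062) or BAP replicate 3 (0.0788).

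**Figure D4:**
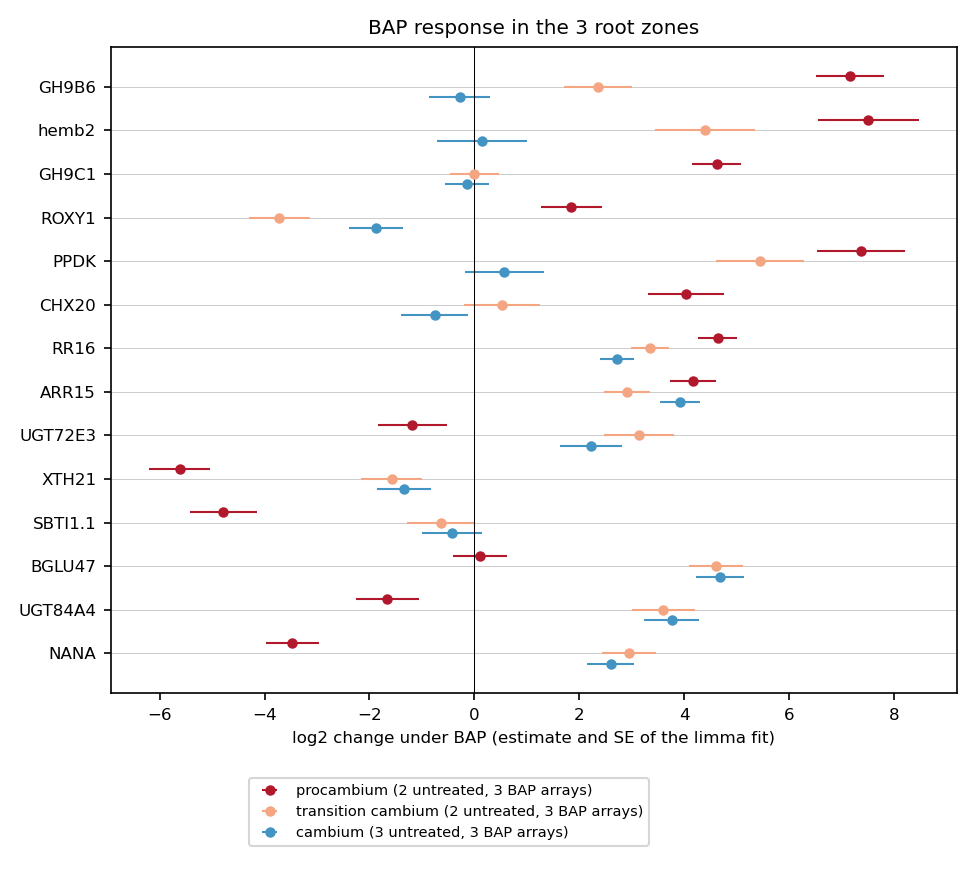
Log2 change under BAP (x axis, estimate with its SE as a bar) in procambium (red), transition cambium (orange) and cambium (blue) for the 12 named genes whose procambium response differed most from the mean of the other zones, and for ARR15 and RR16. ARR15 and RR16 rose in every zone, GH9C1 and CHX20 moved away from 0 in procambium, and NANA and UGT84A4 have procambium estimates on the opposite side from both other zones.

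The level of the called probe sets was also read in untreated ARR5::GFP cells, the population the labels describe as procambium and lateral root cap. On BAP, 245 raised probe sets went from below log2 5 on both untreated arrays to log2 5 or more on all 3 BAP arrays. Of these, 153 (62.4%) were at log2 5 or more on both ARR5::GFP arrays. The share over all probe sets tested was 75.8%. It was 10.1% over the 1356 probe sets that were also below log2 5 on both untreated arrays but were not called. These shares do not compare like with like. Testing needed log2 5 on at least 2 ARR15::GFP arrays, which the 245 met on the BAP procambium arrays. The 1356 could meet it in other zones, and 40.7% of them were that bright on every BAP cambium array. Probe sets bright only in ARR5::GFP cells were not tested. In the reverse group, 188 probe sets lowered from above to below log2 5, the share was 21.8%. It was 89.6% over the 9059 probe sets at log2 5 or more on both untreated arrays and not called. Among the 143 probe sets raised by at least 4 the share was 83.9%, with a median level of log2 9.67. Among the 44 lowered by at least 4 it was 22.7%. These cut-offs were chosen after the values were seen, and the shares are descriptions of 2 ARR5::GFP arrays from younger seedlings and an undissected root part.

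The shares were also taken in the other zones. Of the 143 raised by at least 4 in procambium, 21.7% were at log2 5 or more on every untreated cambium array and 24.5% on every untreated transition cambium array. Under BAP the shares were 28.7% in cambium and 49.0% in transition cambium. BAP raised 72 of the 143 in transition cambium and 20 in cambium, and lowered none and 4. By gene, hemb2 read 12.08 and 12.61 in ARR5::GFP cells, sks16 12.37 and 12.57, sks15 12.99 and 13.22, and AT1G65570 13.81 and 14.21. The other 23 of the 143 were not at log2 5 or more on both ARR5::GFP arrays, among them ARR15 and RR16, which were under it on both. Whether lateral root cap cells make up a different share of the sorted cells under BAP was not tested, since no root cap marker was matched by symbol or synonym. The root cap list holds symbols without locus codes, so locus-code genes such as AT1G65570 may belong to it.

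**Figure D5:**
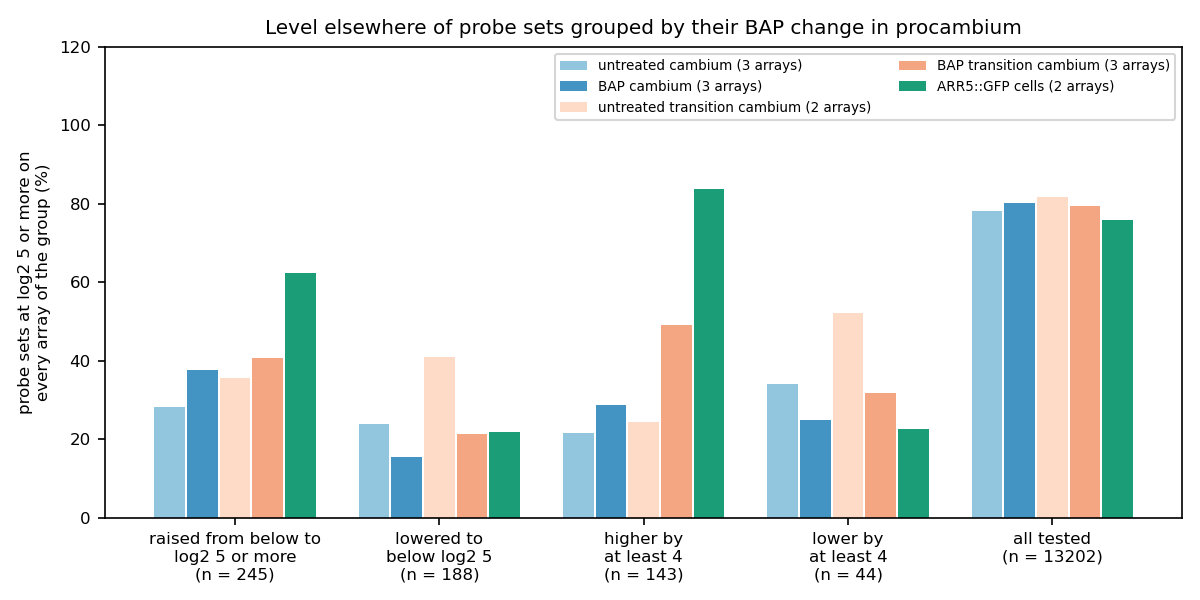
Share of probe sets (y axis, percent) at log2 5 or more on every array of 5 groups of arrays, for probe sets grouped by their BAP change in procambium, with the number of probe sets under each set of bars. The probe sets raised by at least 4 stand at 83.9% in ARR5::GFP cells against 21.7% to 49.0% in the other groups, while all probe sets tested lie between 75.8% and 81.8%.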

How the data were processed

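The deposited values are log2 expression levels of ATH1 probe sets, made by the authors with GCRMA, per the submitters' processing notes; its version is not given in the sources used here. Of 22746 probe sets other than controls, 13202 reached log2 5 on at least 2 of the 16 ARR15::GFP arrays and were tested. limma 3.58.1 in R 4.3.3 fitted group means to these 16 arrays, which share 1 estimate of the spread with 10 residual degrees of freedom, and eBayes used an intensity trend. Adjusted p is Benjamini-Hochberg over all tested probe sets, with a threshold of 0.05. The 2 ARR5::GFP arrays entered no test. The fit was checked on simulated data.

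GEO's platform annotation gave 1 gene for 13513 probe sets, of which 13436 matched the RefSeq table of TAIR10.1, and 1580 carried a gene symbol. The probe set with the highest mean stands for a gene. Genes named for their change have adjusted p under 0.05, a log2 change of at least 1 and no overlap between the arrays of both groups: the 15 largest in each direction with a symbol and the 5 with a locus code, and for the difference between zones the 6 largest in each direction. Members of gene lists may be named too. The members and lists were chosen with earlier results of these data known, and 9 genes matched by spelling only were taken out of lists after values were seen. P-values set each difference against the spread between arrays within groups, pooled over all groups of the ARR15::GFP line.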

Additional observations from a re-analysis of the deposited data

Results flagged for a closer look

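For 28 of the genes named by the rules on size, the BAP response in procambium differed from the mean response of cambium and transition cambium in limma's test of that difference (adjusted p under 0.05). The response was higher in procambium for 13 of them and lower for 15. Among the higher, the differences on the log2 scale were GH9B6 at 6.12, hemb2 at 5.24, GH9C1 at 4.69, ROXY1 at 4.65, PPDK at 4.37, CHX20 at 4.16, JAL33 at 3.21, STR18 at 2.92, JAL22 at 2.66 and RR16 at 1.60. Locus-code genes with a positive difference were AT1G65570 at 6.46, AT3G61930 at 4.98 and AT4G27400 at 4.75. Among the lower, the differences were NANA at -6.24, UGT84A4 at -5.33, BGLU47 at -4.53, SBTI1.1 at -4.25, XTH21 at -4.16, UGT72E3 at -3.85, XTH16 at -3.37, TBL37 at -3.06, RALFL27 at -2.98 and B120 at -2.67. Those of locus-code genes were AT1G49030 at -4.76, AT5G22580 at -4.60, AT1G54740 at -4.29, AT3G22540 at -4.13 and AT1G73780 at -4.02. The procambium estimate was the one farthest from 0 in every one of these genes except BGLU47, UGT84A4, UGT72E3 and ROXY1. The 12 genes named for this difference were chosen by its size. The call held for 19 of the 28 genes whichever of the 16 arrays was left out. It was lost for AT3G61930 without untreated procambium replicate 1 (adjusted p = 0.0911), for JAL22 on leaving out 1 of 4 arrays (up to 0.0617), for AT1G73780 1 of 12 (up to 0.221) and for XTH16 1 of 13 (up to 0.2). The other genes that lost it were hemb2, PPDK, CHX20, UGT72E3 and RR16, with the values given with their differences.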

How the results depend on the processing

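Fitted on the 5 procambium arrays alone, the counts in procambium were 516 higher and 347 lower, with fewer arrays behind the estimate of spread. Under the other alternatives fixed at the start and run on all arrays, the counts in procambium and those of the differences between zones stayed within 1.5 times the reported ones. Median centring gave 904 higher and 981 lower in procambium, against 1005 and 850, and quantile normalization 970 and 853. Leaving out 1 procambium array gave 739 to 943 higher and 352 to 838 lower, the lowest without BAP replicate 3 and untreated replicate 1. Leaving out 1 of the 16 arrays gave, for the difference from the mean of the other zones, 466 to 733 higher and 282 to 574 lower. In either direction it gave 741 to 1142 for the difference from cambium and 358 to 735 for that from transition cambium, the lowest without BAP cambium replicate 1 and untreated transition replicate 1. The effect in cambium called 1011 to 1794 probe sets and that in transition cambium 503 to 864, the lowest without BAP cambium replicate 1 and untreated transition replicate 2.

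With the replicate number as a block, 852 were higher and 686 lower in procambium, and 612 and 425 for the difference from the other zones. Deviations from the group means correlated at -0.523 between the arrays of replicate 1 and -0.472 between those of replicate 2. Untreated replicate 1 correlated at 0.472 with BAP replicate 2, and untreated replicate 2 at 0.523 with BAP replicate 1. With 2 untreated arrays, 1 deviation is the other with its sign changed, so these values cannot decide whether the numbers pair the arrays. The reported fit did not pair them. The second untreated procambium array has the number 3 in the prefix of its title (correlation -0.306 with BAP replicate 3). A block by these prefixes, chosen after seeing the data, gave 861 higher and 678 lower, and took the difference from transition cambium to 424 calls. Of 91 genes followed one by one, 88 of them called, 84 kept their side of the threshold under the block by replicate number, 89 under either scaling, 80 with all 18 arrays, 71 with no filter, 77 with values raised to log2 5 and 57 on procambium arrays alone. None reversed. At a filter of log2 6, 85 were still tested and kept their side. Without untreated replicate 1, 27 calls were lost, and without untreated replicate 2, 24. UGT84A4 was called lower only without BAP replicate 2 (adjusted p = 0.0324). Signal near background limits the folds of genes under log2 5. The cause of these changes was not tested.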
